A study of Mus musculus with 9 samples.

Results

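The receptors for GM-CSF, IL-3 and G-CSF and their shared relay to the nucleus were examined in whole osteosarcoma tumors of genetically engineered mice (GEMMs). The 10 genes were chosen by their symbols, without use of their values, from the 55367 genes of the deposited table: the receptor chains Csf2ra, Csf2rb, Csf2rb2, Il3ra and Csf3r, the kinase Jak2, the transcription factors Stat5a and Stat5b, and the ligands Csf2 and Csf3. RNA-Seq was performed on 4 p53-driven tumors (genotype Col2.3-Cre/TrpP53fl/+, columns F187, F325, F331 and F368) and on 5 Myc-knockin tumors (a Cre-Lox-Stop-Lox allele, (LSL)-c-MycT58A, together with p53fl/+, columns M351, M408, M9, M624 and M664). Both models carry 1 floxed Trp53 allele and a Cre driven by the osteoblast-specific Col 2.3 promoter, so only the Myc allele separates them by design. The libraries came from pieces of whole tumor, so tumor cells, bone cells and infiltrating blood cells contributed to every value. The ages of the mice are not given in the labels. The paper reports a shorter median time to sacrifice for the Myc-knockin mice, so age may differ between the groups along with genotype. The study asked how MYC shapes the tumor cells and the immune cells around them, and CSF signaling was among the processes that it followed.

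GM-CSF (gene Csf2) and IL-3 are cytokines that bind a ligand-specific alpha chain, Csf2ra or Il3ra, which pairs with a common beta chain, Csf2rb. Mice have a second beta chain, Csf2rb2, which serves IL-3 alone. G-CSF (gene Csf3) binds Csf3r, a receptor that pairs with itself and is best known from neutrophils and their precursors. The receptors have no enzyme activity of their own and rely on the kinase JAK2, which phosphorylates STAT5A and STAT5B, and these move to the nucleus and switch on survival genes and their own inhibitors, such as Cish and Socs2. In bone and bone tumors these receptors are known mainly from macrophages, neutrophils, mast cells and other blood cells.

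The beta chain genes and the Stat5 genes are pairs of near-identical paralogs, and the sequences below show where a read of 76 bases, the read length of the libraries, cannot tell them apart. Csf2rb (ENSMUSG00000071713) lies on chromosome 15 of mm10 from 78325752 to 78353847 and Csf2rb2 (ENSMUSG00000071714) lies beside it on the opposite strand, from 78282507 to 78305721. Their coding sequences of 2688 and 2634 bases in the GENCODE annotation share an identical stretch of 242 bases, from base 2083 to base 2324 in both. This stretch is printed first, and the 60 coding bases that follow it in each gene come next, with the 2 bases that differ in capitals.
shared stretch of Csf2rb and Csf2rb2: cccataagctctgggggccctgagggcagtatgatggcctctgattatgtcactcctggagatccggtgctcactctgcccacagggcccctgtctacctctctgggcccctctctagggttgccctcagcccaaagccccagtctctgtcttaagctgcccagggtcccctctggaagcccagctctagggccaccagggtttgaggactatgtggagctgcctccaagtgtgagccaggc
Csf2rb, bases 2325 to 2384: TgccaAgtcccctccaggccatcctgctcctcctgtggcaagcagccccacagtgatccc
Csf2rb2, bases 2325 to 2384: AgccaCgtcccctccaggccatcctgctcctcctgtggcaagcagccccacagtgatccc
Of the distinct 76-base windows in the annotated transcripts, 507 occur in both genes, which is 7.00% of the 7242 windows of Csf2rb and 10.4% of the 4873 windows of Csf2rb2. Stat5a (ENSMUSG00000004043, chromosome 11, 100859351 to 100885169) and Stat5b (ENSMUSG00000020919, chromosome 11, 100780731 to 100850724) are neighbors as well, and their coding sequences are identical over 324 bases. The 60 coding bases after that stretch differ at the 1 base shown in capitals.
Stat5a, bases 895 to 954: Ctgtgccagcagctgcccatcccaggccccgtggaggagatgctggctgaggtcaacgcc
Stat5b, bases 895 to 954: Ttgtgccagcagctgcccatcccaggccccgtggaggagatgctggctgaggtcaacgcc
The Stat5 genes share 381 windows, which is 5.04% of the 7563 windows of Stat5a and 6.88% of the 5535 of Stat5b. How the counting treated reads that match both members of a pair is not given in the sources used here. The division of counts within each pair is therefore uncertain, while the sum of a pair is less affected. The paper describes paired-end reads, so a fragment with a mate outside the shared stretch may still be placed. The shares of single windows thus do not measure the size of that uncertainty. A stretch of 72 bases of Stat5a exons also overlaps exons of Stat3 on the other strand, and 46 bases of Il3ra exons overlap the antisense gene Gm48860.

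Between 2716322 and 17073285 reads were counted per tumor, and expression is given in CPM, counts scaled to the TMM-normalized size of each library. Myc itself, the engineered gene, had 43.5 to 67.1 CPM in the p53-driven tumors and 144 to 1045 CPM in the Myc-knockin tumors. The libraries differed in ways that touch the values below. A set of 12 satellite-repeat genes took 23.2% to 81.0% of the counts in F187, M351, M408 and M9, where a genomic background estimated from chemosensory receptor genes made up 5.46%, 16.7%, 0.590% and 23.9% of the other counts. The non-polyadenylated RNA Rn7sk was at 3.47 CPM in M624, at 6.35 CPM in M664 and at 6545 CPM or more elsewhere. M624 and M664 are both Myc-knockin tumors, so within this pair the RNA content of the library and the genotype cannot be told apart. A gene with 3 counts would have 0.114 CPM in M624 and 2.39 CPM in M9, and these set the lowest levels that can be seen.

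None of the member genes was called different between the models, where a call needed both an adjusted p below 0.05 and a change of more than 1.5-fold. Of the 10, 8 had enough counts to be tested by edgeR's quasi-likelihood test, and 0 of these 8 were called, where 5.27% of all 15365 tested genes were called (3.00% lower in the Myc-knockin tumors, 2.26% higher). At an unadjusted p under 0.05 the edgeR test gave 3 of the 8 (Il3ra, Stat5a and Stat5b), beside 26.8% of all tested genes. DESeq2 called 1 of the 8, Il3ra, beside 17.2% of all tested genes (9.98% higher), and limma-voom 0, beside 10.8%. Each gave 3 at an unadjusted p under 0.05, beside 29.9% of all tested genes for DESeq2 and 29.1% for limma-voom. The 2 groups overlapped for all 8, and 13.0% of all tested genes did not overlap. Il3ra and Csf3r had higher means in the Myc-knockin tumors, and the other 6 had lower ones. The median log2 fold change of the 8 was -0.66, and that of all tested genes was 0.14.

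**Figure D1:**
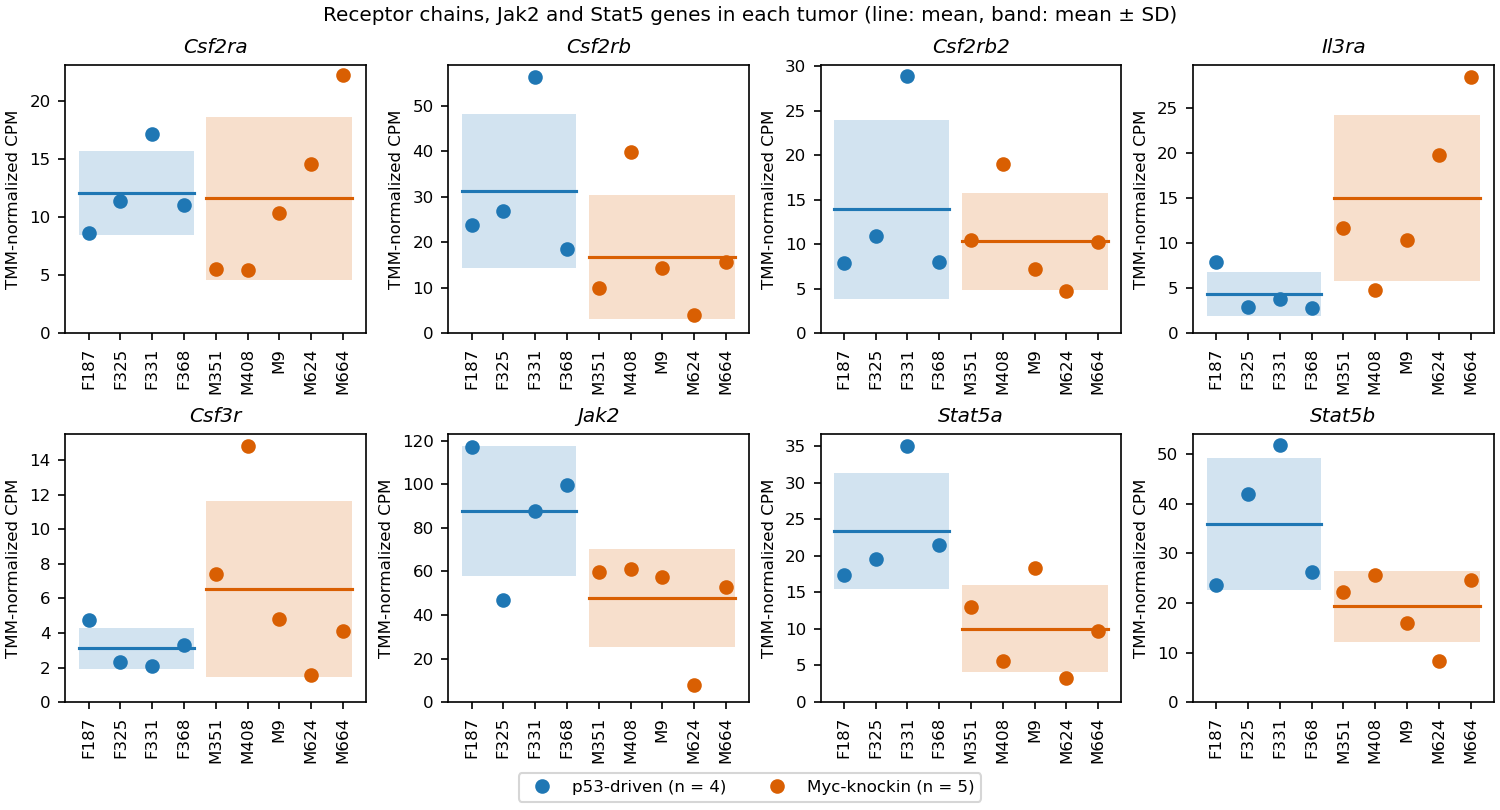
Expression of the 8 tested member genes in each tumor, in TMM-normalized CPM on axes that start at 0, with points for single tumors, lines for group means and bands for mean ± SD (4 p53-driven, 5 Myc-knockin). Il3ra was highest in M664 and M624, at 28.4 and 19.7 CPM, and Jak2 lowest in M624, at 7.89 CPM, and the groups overlapped in every panel.

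The ligand genes were at or near 0. Csf2 (ENSMUSG00000018916, chromosome 11, 54247271 to 54249667) had 0 counts in the 4 p53-driven tumors and in M9, M624 and M664, 1 count in M351 and 5 counts in M408. Csf3 (ENSMUSG00000038067, chromosome 11, 98701263 to 98703629) had 0 counts in the 4 p53-driven tumors, M624 and M664, and 2, 9 and 4 counts in M351, M408 and M9. M408 was therefore the tumor with most counts of both ligands, and there the background accounts for 0.119 expected counts of Csf2 and 0.211 of Csf3. In M351 the expected background was 0.894 counts of Csf2 and 1.58 of Csf3, and in M9 it was 1.74 counts of Csf3, so these few counts were close to the background. The 0 counts in the p53-driven tumors allow a level of up to 0.233 CPM in F325, the deepest, and up to 1.18 CPM in F187, and no fold change is given. Il3, the gene of the third ligand, reached 0.395 CPM at most in the p53-driven tumors and 0.616 CPM in the Myc-knockin tumors. Il5 and its receptor chain Il5ra, which signal through the same beta chain, were too low to be tested as well.

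Il3ra, the alpha chain of the IL-3 receptor, had the largest difference of the members. Its gene (ENSMUSG00000068758) lies on chromosome 14 from 14346275 to 14356011. It had 7.90, 2.96, 3.81 and 2.80 CPM in F187, F325, F331 and F368, and 11.7, 4.76, 10.4, 19.7 and 28.4 CPM in M351, M408, M9, M624 and M664. Of the Myc-knockin tumors, 4 of 5 lay above every p53-driven tumor, and M408 lay between F331 and F187. The means were 4.36 ± 2.40 CPM (SD, n = 4) and 15.0 ± 9.21 CPM (SD, n = 5), with a fitted log2 fold change of 1.85, or 3.60-fold (standard error 0.56, edgeR adjusted p = 0.0707). The call depended on which libraries and which test were used. Il3ra passed with DESeq2 (adjusted p = 0.0117), with a stricter filter of 10 counts or more per tumor (edgeR adjusted p = 0.0357) and without M408 (log2 fold change 2.12, edgeR adjusted p = 0.0440). Over all genes DESeq2 called 2646 of 15365, the stricter filter 1316 of 9283 and the fit without M408 847 of 15472. The main fit called 809 of 15365. The highest values came from M624 and M664, and without this pair the log2 fold change was 1.09 (standard error 0.53, edgeR adjusted p = 0.229). Without the 4 libraries with satellite reads, which left F325, F331 and F368 against M624 and M664, it was 2.93 (standard error 0.38, edgeR adjusted p = 0.00727). There both Myc-knockin libraries had almost no Rn7sk and no p53-driven library did, so library content and genotype cannot be told apart. That fit called 4595 of 16495 genes. Background made up an expected 17.4% of the Il3ra counts in M351, 28.0% in M9 and 10.5% in F187, and at most 1.70% in the other tumors, and the log2 fold change after its subtraction was 1.87 (edgeR adjusted p = 0.0604).

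The cells known to carry the IL-3 receptor were also followed through their markers. The 12 markers of mast cells, basophils and eosinophils together had 29.3 to 45.3 CPM in the p53-driven tumors and 7.73 to 94.0 CPM in the Myc-knockin tumors, and of the 4 tested edgeR and limma-voom called 0, with 2 at an unadjusted p under 0.05 in edgeR, and DESeq2 called Hdc higher and Ccr3 lower. M624, second highest for Il3ra, had the lowest sum of these markers, 7.73 CPM, and M664 had 57.8 CPM. The mast cell markers Cpa3, Cma1 and Mcpt4 were too low to be tested, and no marker of the list was at 0 in every tumor. The 8 dendritic cell markers summed to 23.0 to 34.4 CPM and to 16.8 to 70.1 CPM, and of the 4 tested 0 were called by edgeR, DESeq2 or limma-voom and 0 had an unadjusted p under 0.05 in edgeR. The highest sums of both lists, 94.0 and 70.1 CPM, were in M9. Background was 1.23 counts per kilobase of exon there and was not subtracted from the sums. Il3ra did not follow the order of either list across the tumors, and the cells that held its transcripts cannot be told from whole-tumor RNA.

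Csf2ra, the alpha chain of the GM-CSF receptor, had nearly equal means in both models. The gene (ENSMUSG00000059326) lies on chromosome 19 from 61223957 to 61228429. It had 8.69, 11.4, 17.2 and 11.1 CPM in F187, F325, F331 and F368, and 5.54, 5.49, 10.4, 14.6 and 22.2 CPM in M351, M408, M9, M624 and M664. The 2 lowest and the highest values were all from Myc-knockin tumors. The means were 12.1 ± 3.62 and 11.7 ± 7.03 CPM (SD, n = 4 and 5), with a log2 fold change of -0.03 and a 95% confidence interval from -1.02 to 0.96 (edgeR adjusted p = 0.977). An interval this wide does not show equal expression. The sign turned in 7 of 18 alternatives.

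The common beta chain Csf2rb was lower on average in the Myc-knockin tumors, without passing the test. It had 23.7, 26.8, 56.2 and 18.5 CPM in F187, F325, F331 and F368, and 9.85, 39.7, 14.3, 4.04 and 15.7 CPM in M351, M408, M9, M624 and M664. All Myc-knockin tumors other than M408 lay below the lowest p53-driven tumor, and M408 was second only to F331. The means were 31.3 ± 17.0 and 16.7 ± 13.6 CPM, with a log2 fold change of -0.90 (95% confidence interval -2.16 to 0.36, edgeR adjusted p = 0.338). Without M408 alone, it was -1.51 (edgeR adjusted p = 0.0853). Background made up an expected 50.8% of the Csf2rb counts in M351 and 49.7% in M9.

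The IL-3-specific beta chain Csf2rb2 had 7.90, 11.0, 28.9 and 8.02 CPM in F187, F325, F331 and F368, and 10.5, 19.0, 7.17, 4.72 and 10.3 CPM in M351, M408, M9, M624 and M664. F331 and M408 were the 2 highest tumors for both beta chains, and M624 the lowest. The log2 fold change was -0.44 (95% confidence interval -1.56 to 0.68, edgeR adjusted p = 0.618), and without F331 it turned to 0.20. Csf2rb2 took 25.0%, 29.0%, 33.9% and 30.3% of the summed counts of the pair in F187, F325, F331 and F368, and 51.5%, 32.4%, 33.3%, 53.9% and 39.6% in M351, M408, M9, M624 and M664. The share was 29.6 ± 3.69% and 42.2 ± 10.1% (SD, n = 4 and 5), higher by 12.6 percentage points in the Myc-knockin tumors (two-sided exact permutation test, p = 0.0476, Benjamini-Hochberg adjusted p = 0.0952 over the 2 pairs of paralogs). M408 and M9 lay within the p53-driven range, and in M351 and M9 the pair had 33 and 27 counts in all. The exact binomial 95% interval was 33.5% to 69.2% in M351 and 16.5% to 54.0% in M9, and it covers counting error only. After subtraction of the background the difference was 13.0 points with an exact permutation p of 0.143, and without M624 and M664 it was 9.52 points with an exact permutation p of 0.171.

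**Figure D2:**
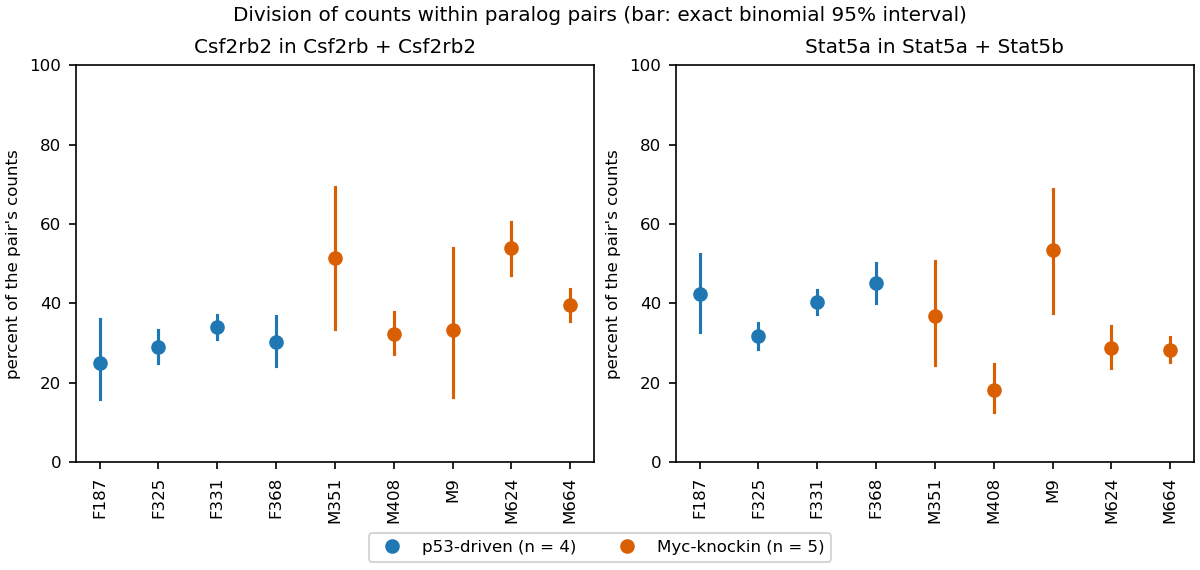
Percent of the summed counts of each paralog pair that fell on Csf2rb2 (left) and on Stat5a (right) in each tumor, with bars for the exact binomial 95% interval of counting error, in p53-driven and Myc-knockin tumors. M624 had the highest Csf2rb2 share, 53.9%, and M408 the lowest Stat5a share, 18.1%, and the intervals were widest in M351 and M9.

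Csf3r, the receptor for G-CSF, was low in all tumors and highest in M408. The gene (ENSMUSG00000028859) lies on chromosome 4 from 126024550 to 126044440. It had 4.74, 2.33, 2.08 and 3.28 CPM in F187, F325, F331 and F368, and 7.39, 14.8, 4.78, 1.56 and 4.10 CPM in M351, M408, M9, M624 and M664. The Myc-knockin tumors thus held both the highest and the lowest value. The means were 3.11 ± 1.21 and 6.53 ± 5.08 CPM, with a log2 fold change of 1.09 (95% confidence interval -0.33 to 2.51, edgeR adjusted p = 0.305). Without M408 it was 0.51 (edgeR adjusted p = 0.618), and without M624 and M664 it was 1.69 (edgeR adjusted p = 0.0896). Of the 6 counts in M9, 4.43 were expected from background, and of the 12 in M351, 4.03. The sum of the 15 neutrophil markers was highest in M408 too, at 207 CPM. It was 8.01 to 25.7 CPM in the p53-driven tumors, 45.5 in M351, 42.2 in M9, 11.9 in M664 and 5.22 in M624. Background was not subtracted from these sums. It was 1.12 and 1.23 counts per kilobase of exon in M351 and M9, against 0.149 in M408. The sums of M351 and M9 therefore do not show more neutrophil transcripts than in the p53-driven tumors. This did not hold for every single marker, as the maxima of Mpo (11.6 CPM) and Camp (0.486 CPM) lay in p53-driven tumors. S100a8 and S100a9, calcium-binding proteins abundant in neutrophils, reached 41.9 and 62.8 CPM in M408. Ly6g was at 0 counts in every p53-driven tumor and at no more than 4 counts in any other. Mpo, the myeloperoxidase of neutrophil granules, had the opposite order of means, 5.66 ± 5.51 CPM in the p53-driven and 2.38 ± 1.98 CPM in the Myc-knockin tumors (log2 fold change -1.36, edgeR adjusted p = 0.440), and Camp was at 0.486 CPM or less in every tumor. Of the 15 markers, 6 were tested and 0 called by edgeR, with 2 at an unadjusted p under 0.05 (S100a8 and S100a9), and DESeq2 called S100a9 alone and limma-voom 0. The part of neutrophils in the Csf3r values was not tested.

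**Figure D3:**
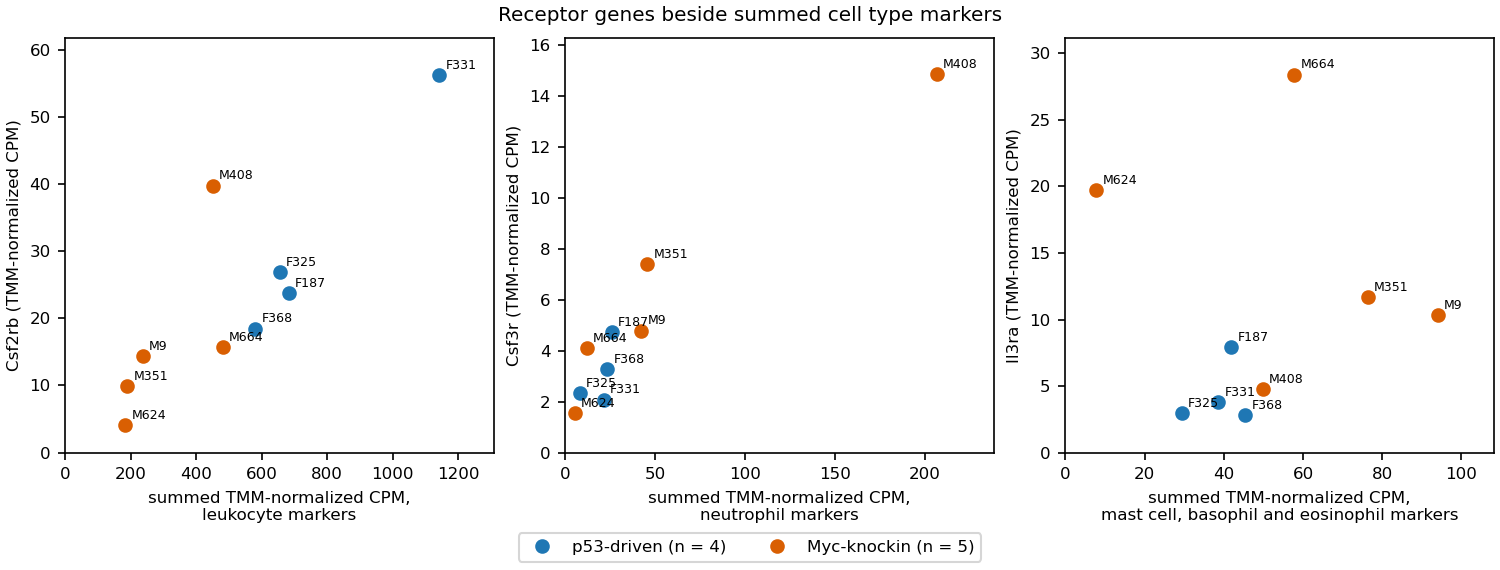
Csf2rb, Csf3r and Il3ra (y axes, TMM-normalized CPM) plotted against the summed CPM of leukocyte, neutrophil, and mast cell, basophil and eosinophil markers (x axes), with 1 point per tumor. M408 is highest on both axes in the neutrophil panel, at 207 and 14.8 CPM, F331 is highest on both in the leukocyte panel, at 1142 and 56.2 CPM, and M624 combines a high Il3ra with the lowest marker sum.

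The summed leukocyte markers were lower in every Myc-knockin tumor than in any p53-driven tumor, and their part in the receptor values was not tested. In bulk RNA, fewer cells of a type and less RNA per cell cannot be told apart. Of the 12 leukocyte markers, 3 were called lower by edgeR (Cyth4, Lcp1 and Rac2), beside 3.00% of all tested genes, and 0 were called higher. Coro1a had a higher mean in the Myc-knockin tumors, 13.3 ± 11.5 CPM against 5.58 ± 0.866 CPM (log2 fold change 1.29, edgeR adjusted p = 0.146). The median log2 fold change of the 12 was -1.31, and their sum was 580 to 1142 CPM in the p53-driven tumors and 182 to 481 CPM in the Myc-knockin tumors. The 12 macrophage markers had 2 called lower (Csf1r and Cd68) and a median of -0.43, with sums of 813 to 1291 and 318 to 994 CPM. The log2 fold change was positive for 3 of these 12, Fcgr1 (0.65), C1qb (0.56) and C1qa (0.17), and none of the 3 was called. The 7 osteoclast markers had 6 called lower, and sums of 1507 to 8643 and 67.7 to 943 CPM. The 10 osteoblast markers all had lower means in the Myc-knockin tumors, with sums of 62267 to 140816 and 3415 to 40339 CPM and a median log2 fold change of -1.43. Of these edgeR called 1 lower (Bglap), and DESeq2 and limma-voom each called 3 (Bglap, Col1a1 and Col1a2). Of 8 endothelial markers 0 were called by edgeR, DESeq2 or limma-voom, with 1 at an unadjusted p under 0.05 in edgeR. Each receptor chain was also set against the leukocyte markers within its tumor. The measure was log2 of CPM plus 2 for the receptor, minus the mean of log2 of CPM plus 2 over the 12 markers. Csf2rb then had a difference between the group means of 0.02, with -0.31 ± 0.38 and -0.29 ± 0.66 (SD, n = 4 and 5). Csf2ra and Csf2rb2 differed by 0.86 and 0.72 on this scale, with overlap. Il3ra differed by 2.32, from -2.65 ± 0.57 to -0.33 ± 1.04, with M408 inside the p53-driven range. Csf3r differed by 1.60, from -2.93 ± 0.55 to -1.33 ± 0.76, with a highest p53-driven value of -2.37 and a lowest Myc-knockin value of -2.36. How many of all genes lie apart on this scale was not computed. The summed markers were lower in every Myc-knockin tumor, so a gene that did not fall with them rises on this scale. The added 2 CPM also compresses the differences of a gene as low as Csf3r. No test was run on these differences.

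Jak2, the kinase bound to all these receptors and to many others, was the most abundant of the members per length of exon, with 17.5 ± 5.91 CPM per kilobase in the p53-driven tumors and 9.49 ± 4.48 in the Myc-knockin tumors. The gene (ENSMUSG00000024789) lies on chromosome 19 from 29251828 to 29313080. It had 117, 47.0, 87.7 and 99.7 CPM in F187, F325, F331 and F368, and 59.7, 61.2, 57.4, 7.89 and 52.6 CPM in M351, M408, M9, M624 and M664. All Myc-knockin tumors were below 3 of the 4 p53-driven tumors, and F325 lay among them. M624 stood far below the other 4 tumors of its group. The log2 fold change was -0.89 (95% confidence interval -1.99 to 0.22, edgeR adjusted p = 0.283) and -0.54 without M624 (edgeR adjusted p = 0.301).

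Stat5a and Stat5b, the transcription factors that JAK2 activates, were both lower on average in the Myc-knockin tumors, without passing the adjusted threshold. Stat5a had 17.4, 19.5, 35.0 and 21.5 CPM in F187, F325, F331 and F368, and 12.9, 5.68, 18.3, 3.35 and 9.72 CPM in M351, M408, M9, M624 and M664. M9, in which 38.1% of the Stat5a counts were expected from background, was the only Myc-knockin tumor within the p53-driven range. The means were 23.4 ± 7.96 and 9.999 ± 5.93 CPM, with a fitted log2 fold change of -1.30, or 2.46-fold (standard error 0.47, edgeR adjusted p = 0.110). Without M9 the log2 fold change was -1.61 and the gene passed (edgeR adjusted p = 0.0499), and without M624 and M664 it was -0.96 (edgeR adjusted p = 0.192).

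Stat5b had 23.7, 42.1, 51.9 and 26.3 CPM in F187, F325, F331 and F368, and 22.2, 25.6, 15.9, 8.31 and 24.6 CPM in M351, M408, M9, M624 and M664. The highest 3 tumors were p53-driven, and F187 lay among the Myc-knockin tumors. The log2 fold change was -0.90 (95% confidence interval -1.73 to -0.07, edgeR adjusted p = 0.156), and it kept its sign in all 19 alternatives. Stat5b exceeded Stat5a per kilobase of exon in both models, at 6.50 ± 2.41 against 3.28 ± 1.12 CPM per kilobase in the p53-driven tumors and 3.49 ± 1.30 against 1.40 ± 0.83 in the Myc-knockin tumors. The Stat5a share of the summed Stat5 counts was 42.3%, 31.7%, 40.3% and 45.0% in F187, F325, F331 and F368, and 36.8%, 18.1%, 53.5%, 28.8% and 28.3% in M351, M408, M9, M624 and M664. M9 was the highest and M408 the lowest of all tumors. The mean share was 39.8 ± 5.77% and 33.1 ± 13.2% (two-sided exact permutation test, p = 0.365).

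**Figure D4:**
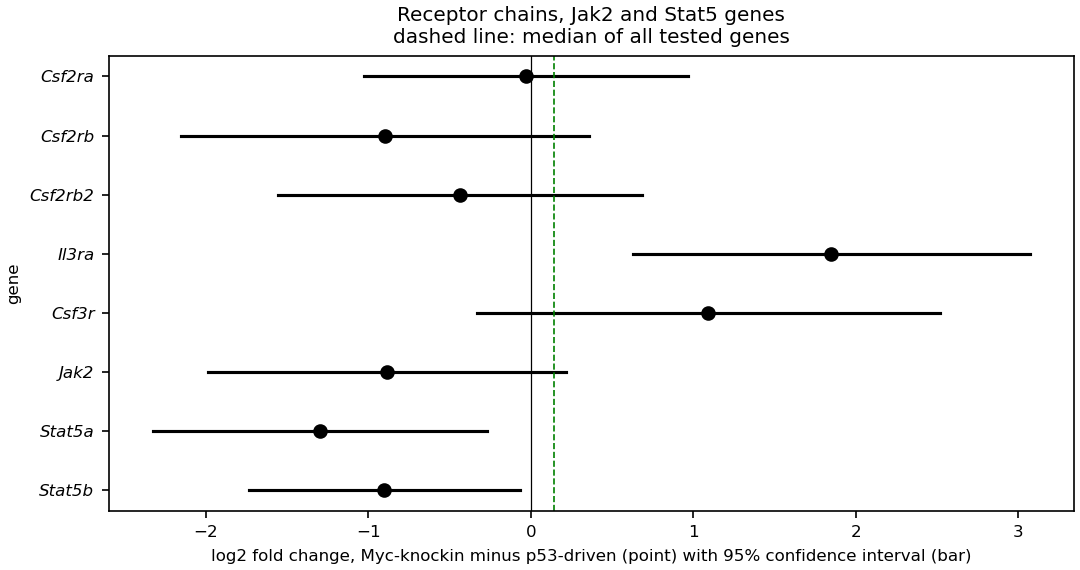
Log2 fold changes (x axis, Myc-knockin minus p53-driven) with 95% confidence intervals for the 8 tested member genes, and a dashed line at the median of all tested genes, 0.14. The points of Il3ra (1.85) and Csf3r (1.09) lie on the right, and Stat5a (-1.30) lies lowest of the members.

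On the scale of CPM per kilobase, the order of the receptor chains differed between the models. In the p53-driven tumors it was Csf2rb (4.30 ± 2.33), Csf2ra (4.21 ± 1.26), Csf2rb2 (2.94 ± 2.12), Il3ra (1.47 ± 0.81) and Csf3r (0.861 ± 0.334). In the Myc-knockin tumors it was Il3ra (5.05 ± 3.11), Csf2ra (4.06 ± 2.45), Csf2rb (2.30 ± 1.88), Csf2rb2 (2.18 ± 1.14) and Csf3r (1.81 ± 1.41). Neighbors in both orders differed by less than the larger of their SDs. Il3ra stood next to last in the p53-driven tumors and first in the Myc-knockin tumors, where M624 and M664 held its highest values.

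The rest of the pathway was read from a list of 57 genes by role, of which 50 were tested. EdgeR called 3 of these 50 lower in the Myc-knockin tumors, beside 3.00% of all tested genes, and 0 higher, with a median log2 fold change of -0.41. At an unadjusted p under 0.05 it gave 16, beside 26.8% of all tested genes. DESeq2 called 13 of the 50, beside 17.2% of all tested genes, and limma-voom 11, beside 10.8%. Of these calls 11 were lower with DESeq2, beside 7.24% of all tested genes, and 10 with limma-voom, beside 6.51%. The others, 2 with DESeq2 and 1 with limma-voom, were higher, beside 9.98% and 4.32% of all tested genes. The groups did not overlap for 13 of the 50, beside 13.0% of all tested genes.

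All 3 genes called were relays downstream of the receptors. Sos1, the exchange factor that loads Ras with GTP, fell from 132 ± 21.4 to 54.9 ± 20.2 CPM (log2 fold change -1.27, edgeR adjusted p = 0.0441). Pik3cg, the PI3K catalytic subunit typical of leukocytes, fell from 17.8 ± 5.04 to 6.01 ± 2.56 CPM (log2 fold change -1.63, edgeR adjusted p = 0.0489). For both of these the groups lay apart. With single tumors left out, the log2 fold change ranged from -1.41 to -1.08 for Sos1 and from -1.81 to -1.34 for Pik3cg. The calls did not hold throughout, since 0 pathway genes were called without F325, F331 or F368, and 1 without F187, M351 or M624. Over all genes the calls likewise dropped, from 809 to 8 without F325, 6 without F331 and 5 without F368. The other 15 relays and adaptors were not called by edgeR, among them Akt1 (log2 fold change 0.18) and Ptpn11 (-0.23), while DESeq2 called Shc1 lower and limma-voom called Shc1 and Pik3r1 lower.

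Of the 8 kinases that these receptors share with other receptors, 0 were called by edgeR, with 5 at an unadjusted p under 0.05, while DESeq2 called 4 lower, among them Btk, Fes and Jak1, and limma-voom 3, among them Fes and Jak1. The means of 7 were lower in the Myc-knockin tumors, and the groups did not overlap for 5, beside 13.0% of all tested genes. The median log2 fold change was -1.09. Jak1 had 186.6 ± 21.6 and 83.8 ± 38.2 CPM (log2 fold change -1.15, edgeR adjusted p = 0.0674). Lyn had a log2 fold change of -0.97 and Syk of -1.03. The non-overlapping kinases included Jak1, Fes, Syk and Btk, named after their values were seen, and Fes, Syk and Btk are typical of blood cells.

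Of the 4 other STAT factors tested 0 were called by edgeR, DESeq2 or limma-voom, and 0 had an unadjusted p under 0.05 in edgeR, with Stat3 at -0.75, Stat6 at -0.07 and Stat2 at 0.08 on the log2 scale. Among the 8 inhibitors 0 were called by edgeR, with 2 at an unadjusted p under 0.05, and DESeq2 called Inpp5d and Ptpn6 lower and limma-voom Ptpn6. Cbl, a ubiquitin ligase, had a log2 fold change of -0.44, Sh2b3, an adaptor that restrains JAK2, of 0.08, and Inpp5d, the phosphatase SHIP1 of blood cells, of -1.19 (edgeR adjusted p = 0.0674). Among the 7 tested output genes of STAT5, 0 were called by edgeR, with Pim2 at an unadjusted p under 0.05 and called higher by DESeq2 and limma-voom. Of these genes Ccnd2, Mcl1 and Pim1 had log2 fold changes of -0.48, -0.41 and 0.23. Of the 5 tested myeloid transcription factors 0 were called by edgeR, with 3 at an unadjusted p under 0.05, and DESeq2 called Spi1 lower and Cebpb higher and limma-voom Spi1. Spi1, the factor PU.1, had a log2 fold change of -1.71 (edgeR adjusted p = 0.0677), Runx1 of -0.91 and Cebpb of 0.88.

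**Figure D5:**
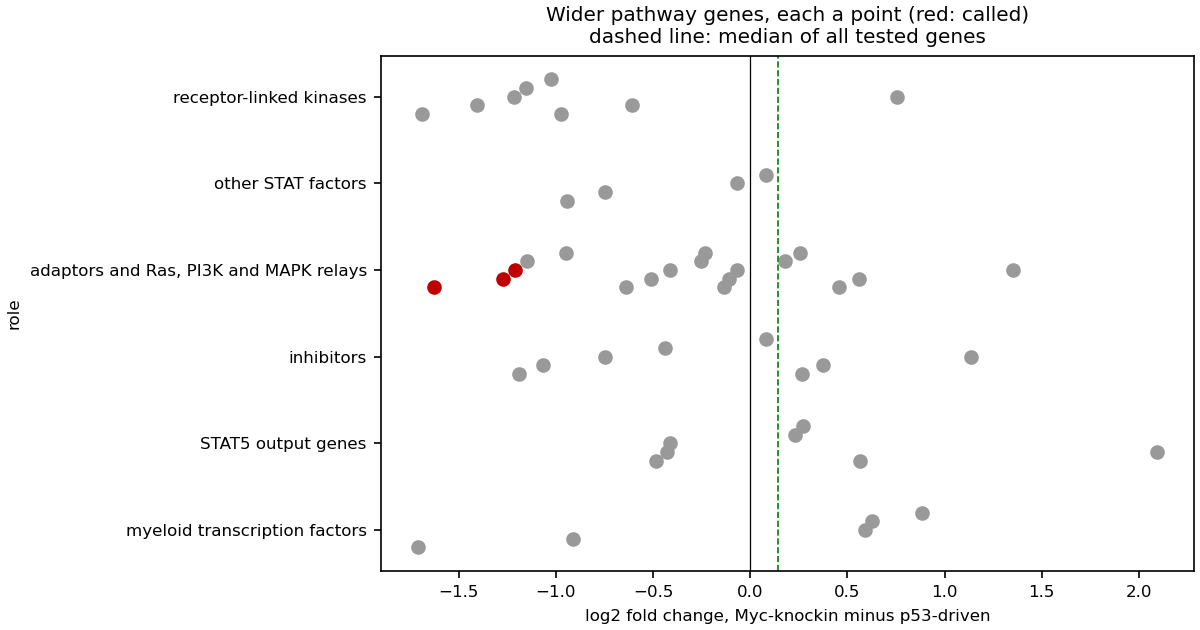
Log2 fold changes (x axis, Myc-knockin minus p53-driven) of the 50 tested pathway genes by role (y axis), each a point, with the 3 called genes in red and a dashed line at the median of all tested genes, 0.14. All 3 called genes lie left of 0, Sos1 at -1.27 and Pik3cg at -1.63 among them, and 7 of the 8 kinases lie left of 0.

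STAT5 binds the palindrome TTCNNNGAA, which was sought in the RefSeq promoter windows (GRCm38.p6) from 250 bases before to 50 after each start. The motif reads the same on both strands, and 8.30% of 32851 promoters held it. Cish, the inhibitor best known as a STAT5 target, held 2 matches, and among the members with an entry Csf2rb2 held 1, printed here with the motifs in capitals.
Cish, chr9:107296619-107296682, plus strand: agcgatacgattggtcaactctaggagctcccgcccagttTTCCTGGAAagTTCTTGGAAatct
Csf2rb2, chr15:78305698-78305776, minus strand: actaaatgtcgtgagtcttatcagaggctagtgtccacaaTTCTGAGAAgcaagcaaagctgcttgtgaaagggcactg
The matches begin at bases 1 and 12 after the start of Cish and 15 bases before that of Csf2rb2, and a match is a description of the letters only. The windows of Csf2ra, Il3ra, Csf3r, Jak2, Stat5a, Stat5b and Csf2 held none. Cish was low, with 1.47 ± 1.46 CPM in the p53-driven tumors and 3.26 ± 2.51 CPM in the Myc-knockin tumors (log2 fold change 1.14, 95% confidence interval -1.01 to 3.28, edgeR adjusted p = 0.485). Socs2, another STAT5 target, had 35.8 ± 19.1 and 21.9 ± 17.5 CPM (log2 fold change -0.75, edgeR adjusted p = 0.522).

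Genes with a pattern across the 9 tumors most like that of Csf2rb or Csf3r were found by Pearson's r of log2 CPM over the 9532 tested genes with a mean of at least 10 CPM, as a description. For Csf2rb these were Itga2 (0.97), Arrb1 (0.96), Snx9 (0.95), Clec2d (0.95) and Plekha2 (0.94). For Csf3r they were St8sia1 (0.94), Arg1 (0.92), Ptprn (0.90), Atp10a (0.89) and Prkg2 (0.88). The points share their libraries. M624 was the lowest tumor for both receptors, F331 was the highest for Csf2rb and M408 the highest for Csf3r.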

How the data were processed

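The methods describe enrichment of mRNA from whole tumors on oligo-dT beads. Rn7sk, which lacks a poly(A) tail, was at 6545 to 10667 CPM in 7 libraries and at 3.47 and 6.35 CPM in M624 and M664, so whether 1 protocol was used for all is unsure. After trimming (trimGalore) and alignment to mm10 (STAR), the authors used featureCounts and deposited its unnormalized counts per gene. Neither the strand setting nor the treatment of multi-mapping reads is given in the sources used here. No label names a column. M408, M624 and the 4 columns that start with F are listed under their genotype in the study's supporting data, and M351, M9 and M664 were assigned from the letter M alone. A further 6 columns without names, 5 of them empty, were not used. Whether tumors came from separate litters or cohorts is not stated.

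Counts were tested in R 4.3.3 with edgeR 4.0.16 (TMM normalization, filterByExpr with a minimum count of 10, glmQLFit and glmQLFTest, no covariates, all 9 tumors), which kept 15365 genes, with Benjamini-Hochberg adjustment over all of them. Calls needed an adjusted p below 0.05 and more than 1.5-fold change, the thresholds of the study. DESeq2 1.42.0 and voom of limma 3.58.1 with quality weights were alternatives. The script was tested on simulated data. Paralog shares were compared by two-sided exact permutation tests over 126 arrangements, whose smallest p is 0.0159. Log2 CPM used a prior count of 2, and the values set against the leukocyte markers used log2 of CPM plus 2. The background was estimated per library from the counts per kilobase of exon of 1523 chemosensory receptor genes. Floors of 3 counts and binomial intervals cover counting error only. Exon lengths came from GENCODE, which held 55034 of the 55367 identifiers.

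All members were described. Of the pathway genes, those called and up to 3 per role with the highest mean CPM were named, and other names were chosen after their values were seen. Some pathway genes that this rule names are not reported here. Marker lists were written by hand for 8 cell types. The members and lists were chosen with earlier results of these data known.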

Additional observations from a re-analysis of the deposited data

Results flagged for a closer look

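A gap test within each group (Dixon's, at the 95% level) set single tumors apart for 2 of the member genes, where chance alone sets about 1 in 20 groups apart. It was run on each of the 10 genes and on the 2 paralog shares in both models, except where all values were equal. This few flags is near what chance gives. Csf2rb2 had 28.9 CPM in F331, and the nearest of the other p53-driven tumors, F325, had 11.0 CPM. F331 was also the tumor with the highest Csf2rb, Stat5a and Stat5b and with the highest leukocyte marker sum, 1142 CPM. Jak2 had 7.89 CPM in M624, and the nearest of the other Myc-knockin tumors, M664, had 52.6 CPM. M624 also had the lowest Csf2rb, Csf2rb2, Csf3r, Stat5a and Stat5b of all tumors. Its leukocyte, macrophage and endothelial marker sums, 182, 318 and 94.6 CPM, were the lowest of all tumors as well, while its osteoclast marker sum, 128 CPM, was not. M624 is 1 of the pair of libraries with almost no Rn7sk, and M664, the other of the pair, did not share the low Jak2.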

How the results depend on the processing

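Over all genes, edgeR called 809 genes, and 136 with library size alone, 494 with genes of 1 count or more, 1316 with the strict filter of 10 counts or more per tumor and 4595 without the 4 libraries with satellite reads, while DESeq2 called 2646 and limma-voom 1663. With single tumors left out, the count ranged from 5 (without F368) to 1588 (without M9), and it was 6 without F331 and 8 without F325. Of the calls, 43.0% were higher in the Myc-knockin tumors, and 64.5% with upper-quartile normalization, 59.7% with the strict filter and 58.0% with DESeq2.

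Of the member genes, 0 were called by edgeR, and 1 (Il3ra) with the strict filter, with DESeq2 and without the 4 libraries with satellite reads. In the last of these fits the Rn7sk content of the libraries and the genotype coincide. With single tumors left out the count ranged from 0 to 1, which was Il3ra without M408 and Stat5a without M9. Csf2ra turned to log2 fold changes of 0.011 with upper-quartile normalization, 0.016 with library size alone and 0.49 without the 4 satellite libraries. With single tumors left out it ranged from -0.39 to 0.20, above 0 without F331, M351, M408 or M9, and Csf2rb2 ranged from -0.77 to 0.20, above 0 without F331. The other 6 tested members kept their direction in every alternative run. The cause was not tested.

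Of the pathway genes, 3 were called, and 0 with library size alone or with every gene of at least 1 count, 6 with the strict filter, 13 with DESeq2, 11 with limma-voom, 6 without M624 and M664 and 9 without the 4 satellite libraries, and 0 to 4 with single tumors left out.

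The Csf2rb2 share (difference of 12.6 points) no longer passed an exact permutation p under 0.05 after background subtraction (13.0 points, p = 0.143), without M624 and M664 (9.52 points, p = 0.171) and without the 4 satellite libraries (15.7 points, p = 0.200, where the smallest p is 0.200). With single tumors left out the difference ranged from 9.65 to 15.0 points, and p stayed under 0.05 in 1 of the 9 fits, without F331. For the Stat5a share the difference was negative throughout, from -11.8 to -2.98 points with single tumors left out. No paired analysis was possible because the columns carry no replicate numbers. M351 and M9 held 872935 and 671790 counts outside the satellite genes, so members with under 20 counts there are known only to within wide counting error.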
